A study of Mus musculus with 22 samples.

Results

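Acetylation of histone H3 at lysine 27 (H3K27ac) was compared between livers of mice fed a high-fat diet and livers of mice fed chow, over every region in which the authors called a peak in either diet. The members are all 11235 regions of this union, called union peaks here, out of 28069 union peaks of H3K27ac and H3K4me1 in the series. All 11235 passed the filter on low counts and were tested. Each diet had 3 H3K27ac libraries. All animals were wild type C57BL/6J mice, killed at 24 weeks of age after an overnight fast. The chow group ate Prolab Isopro RMH 3000 throughout, and the high-fat group ate the diet S3282 for 16 weeks from the age of 8 weeks. The same study provides H3K4me1 and mRNA libraries of both diets (3 each) and 2 H3K4me3 libraries of chow livers, which are used here only where they overlap the H3K27ac regions. The labels do not say which libraries came from the same animal, nor that replicates came from separate animals, so p-values measure the spread between these libraries.

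H3K27ac is placed by acetyltransferases such as p300 and CBP and removed by histone deacetylases, and it marks promoters and enhancers in use. H3K4me3 is concentrated at the start sites of transcribed genes, whereas H3K4me1 covers enhancers and the flanks of promoters. In liver, most of this signal comes from hepatocytes, with smaller contributions from Kupffer cells, endothelial cells, stellate cells and lymphocytes. In bulk tissue, a change in the number of cells of a type and a change of the mark within those cells cannot be told apart.

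Some of the promoters described later are shown first, because their acetylation differed between diets and their sequences differ in kind. They are the 250 bases before the RefSeq gene start on build GRCm38.p6, 5′ to 3′ along the gene. The peaks themselves are given on mm9, and no sequence of that build was used. Of the 49 promoters called below, 31 had an entry. Capitals mark the one short motif named for each promoter, on either strand. Oas3 (chr5:120777660-120777909, minus strand, capitals GAAANNGAA, the core of the interferon-stimulated response element) is one of the 2′-5′ oligoadenylate synthetases of the antiviral response.
Oas3: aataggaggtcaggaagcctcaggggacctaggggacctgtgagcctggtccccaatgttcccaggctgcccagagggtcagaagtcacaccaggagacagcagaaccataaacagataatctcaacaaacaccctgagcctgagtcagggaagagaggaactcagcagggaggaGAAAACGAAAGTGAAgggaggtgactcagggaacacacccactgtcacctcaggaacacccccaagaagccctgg
Its 2 matches overlap, and 7.13% of all 32851 RefSeq promoter windows of this length hold the motif. H2-Aa (chr17:34287824-34288073, minus strand, capitals CCAAT, here on the reverse strand) encodes the alpha chain of the class II antigen-presenting molecule I-A.
H2-Aa: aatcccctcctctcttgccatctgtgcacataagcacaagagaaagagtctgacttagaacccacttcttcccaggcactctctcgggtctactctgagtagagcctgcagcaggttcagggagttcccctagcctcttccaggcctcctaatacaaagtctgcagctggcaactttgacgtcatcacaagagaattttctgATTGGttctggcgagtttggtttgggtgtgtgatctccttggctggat
CCAAT was in 33.8% of the windows. Cd68 (chr11:69666171-69666420, minus strand, capitals TGACTCA, the AP-1 site, both on the reverse strand) encodes a lysosomal glycoprotein of macrophages.
Cd68: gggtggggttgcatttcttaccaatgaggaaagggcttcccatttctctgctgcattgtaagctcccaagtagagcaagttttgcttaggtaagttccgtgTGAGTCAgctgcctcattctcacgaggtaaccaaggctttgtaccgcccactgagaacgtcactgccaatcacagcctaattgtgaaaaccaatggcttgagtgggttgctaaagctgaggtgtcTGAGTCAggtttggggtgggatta
TGACTCA was in 4.46% of the windows. Cyp2a4 (chr7:26306942-26307191, plus strand, capitals TATAAA) encodes a steroid 15-alpha-hydroxylase that is female-biased in mouse liver.
Cyp2a4: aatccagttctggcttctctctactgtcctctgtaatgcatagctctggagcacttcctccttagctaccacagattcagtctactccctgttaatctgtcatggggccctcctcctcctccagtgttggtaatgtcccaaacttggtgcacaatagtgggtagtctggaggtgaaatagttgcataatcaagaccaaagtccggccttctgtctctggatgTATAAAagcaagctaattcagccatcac
TATAAA was in 12.4% of the windows and began 28 bases before the gene start in Cyp2a4. Dact2 (chr17:14203832-14204081, minus strand, capitals GGGCGG, the GC box) encodes an intracellular antagonist of Wnt and Nodal signalling, and its acetylation was lower on the high-fat diet.
Dact2: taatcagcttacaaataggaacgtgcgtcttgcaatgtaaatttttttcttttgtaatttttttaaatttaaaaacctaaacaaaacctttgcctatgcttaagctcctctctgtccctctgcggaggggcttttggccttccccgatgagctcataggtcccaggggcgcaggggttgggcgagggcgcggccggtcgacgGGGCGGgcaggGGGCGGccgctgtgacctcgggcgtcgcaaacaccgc
GGGCGG was in 32.7% of the windows. The Dact2 window holds 18 CpG dinucleotides, against 1 in Oas3, 1 in Cyp2a4, 3 in H2-Aa and 4 in Cd68, and against a median of 6 over all windows. A match describes the letters only.

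Reads in union peaks numbered 2729808 to 5772962 in the chow libraries and 2037101 to 4374345 in the high-fat libraries. These were 17.8% of the pooled chow tags and 16.2% of the pooled high-fat tags. High-fat replicate 1 was the shallowest library and stood apart from the other 5 on the first principal component, which held 45.7% of the variance. It was the most extreme of the 3 high-fat libraries at 99 of the 135 peaks called higher and at 52 of the 80 called lower. Levels below are CPM, counts scaled to a normalised library of 1000000 reads, and differences are log2 fold changes of high-fat over chow with their standard error (SE) from edgeR's quasi-likelihood fit. A feature is called where its Benjamini-Hochberg adjusted p was below 0.05.

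H3K27ac differed between diets at a small share of regions and by less than 2-fold. Of 11235 peaks, 215 were called (1.91%), of which 135 rose and 80 fell. The excess of increases depended on single libraries, with 21 higher and 25 lower without chow replicate 1 and 21 higher and 23 lower without chow replicate 3. The log2 fold changes of called peaks ran from -0.92 to 0.87, with a median of 0.44 for those that rose and -0.49 for those that fell. No called peak changed by 2-fold or more, and 39 changed by over 1.5-fold. The 3 libraries of one diet lay wholly above those of the other at 210 of the 215 called peaks and at 2170 of all 11235 (19.3%). Without high-fat replicate 1, 261 peaks were called, 188 of them shared with the 215. Without a single one of the others the number ranged from 44 (without chow replicate 3) to 442 (without high-fat replicate 2), passing through 46 without chow replicate 1, 75 without high-fat replicate 3 and 111 without chow replicate 2.

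Among the peaks that rose, the largest fold change was at chr3:7612271-7613965, a region of 1695 bp. It measured 20.9, 15.03 and 21.1 CPM in chow replicates 1 to 3 and 35.4, 38.1 and 33.5 CPM in the high-fat replicates. The log2 fold change was 0.87 ± 0.15 (SE, adjusted p = 0.00279 by edgeR's quasi-likelihood test). At chr1:94727530-94733817, chow libraries held 69.7, 63.4 and 81.2 CPM and high-fat libraries 124.9, 125.7 and 137.2 CPM. This peak rose by 0.84 ± 0.09 on the log2 scale (edgeR adjusted p = 4.2e-05), and the H3K4me1 peak at the same place rose as well (log2 fold change 0.47, edgeR adjusted p = 0.00567). At chr9:21470393-21480546, which overlapped neither methylation mark, chow libraries held 99.2, 86.9 and 80.0 CPM and high-fat libraries 140.7, 163.8 and 166.3 CPM. Its log2 fold change was also 0.84 ± 0.09 (edgeR adjusted p = 4.2e-05). Named peaks were chosen among called peaks without overlap between diets, so their separation follows from the choice. In 2 further risers, singled out for this pattern, high-fat replicate 1 stood above the other 2. At chr17:84477503-84486536, high-fat replicate 1 reached 233.6 CPM while replicates 2 and 3 held 129.6 and 161.7 CPM, against 95.4 to 112.3 CPM in chow. The peak at chr11:117852580-117858168 had the same form, with 150.02 CPM in high-fat replicate 1 and 86.3 and 99.5 CPM in the others, against 57.1 to 74.1 CPM in chow. These 2 calls were lost with DESeq2 and without chow replicate 3, the second also without chow replicate 1.

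The deepest decrease was at chr4:144674917-144677609. It measured 34.6, 52.4 and 36.5 CPM in chow and 26.6, 22.7 and 16.1 CPM in the high-fat libraries. The log2 fold change was -0.92 ± 0.17 (edgeR adjusted p = 0.0069), and the H3K4me1 peak inside it fell by 0.90 on the log2 scale (edgeR adjusted p = 0.00676). The call was lost without high-fat replicate 3. At chr19:47374654-47382234, chow libraries held 153.3, 131.6 and 144.9 CPM and high-fat libraries 71.8, 88.8 and 104.7 CPM, a log2 fold change of -0.68 ± 0.10 (edgeR adjusted p = 0.00109). The other named decreases, apart from the chromosome 17 group described below, were narrow regions with low CPM. At chr5:45907018-45908498 and chr19:54280658-54281801, for instance, chow means were 30.7 ± 5.3 and 23.3 ± 3.8 CPM (SD, n = 3) and high-fat means were 18.7 ± 2.5 and 14.1 ± 2.6 CPM. The call at the second of these was lost without any one of 5 of the 6 libraries, and the call at the first without chow replicate 1 or chow replicate 3. The plot of the 20 named peaks shows each library.

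**Figure D1:**
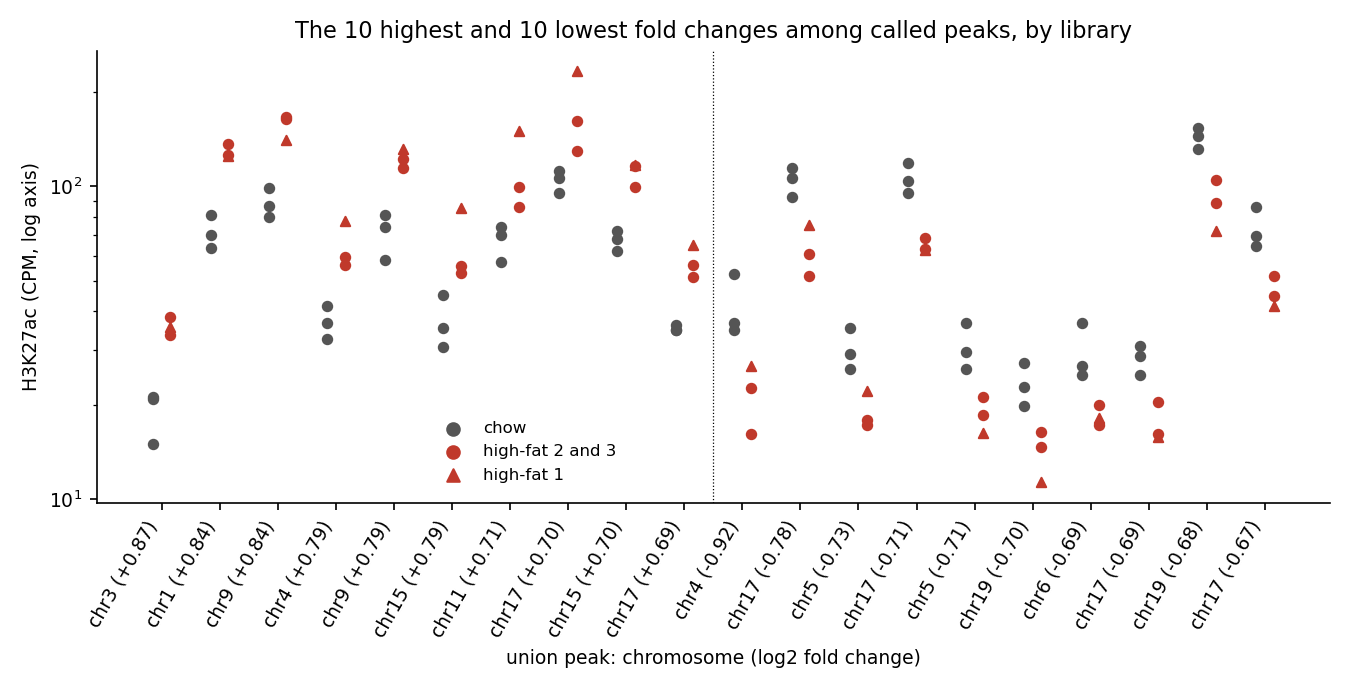
H3K27ac in CPM (log axis) at the 10 called peaks with the largest increases (left of the dotted line) and the 10 with the largest decreases, labelled by chromosome and log2 fold change. Each point is a library (3 chow, 3 high-fat), with high-fat replicate 1 as triangles. Peaks were named only where chow and high-fat libraries did not overlap. At chr17 (0.70) high-fat replicate 1 reaches 233.6 CPM.

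Called peaks were mostly regions with H3K4me1 and without H3K4me3. Of the 3734 peaks that overlapped an H3K4me1 union peak but no chow H3K4me3 peak, 145 were called (3.88%), 88 higher and 57 lower. Of the 3083 peaks at H3K4me3 alone, 6 were called (0.195%), 3 in each direction. Regions with both marks lay between, with 41 of 3474 (1.18%), and regions with neither had 23 of 944 (2.44%). The median SE was 0.101 at H3K4me1 alone and 0.103 at H3K4me3 alone. The regions at H3K4me3 alone were narrower (median 2485 against 4554 bp). Their median signal was 58.7 against 69.8 CPM, and 23.3 against 15.7 CPM per kb. The part of precision, width and signal in these shares was not tested. An H3K4me3 peak was present at 24.4% of the peaks that rose, at 17.5% of those that fell and at 58.4% of all. H3K4me3 was measured in chow only. The order of H3K4me1 alone over H3K4me3 alone held in 11 of 11 fits, which included leaving out each library. The share called at H3K4me1 alone was 0.777% without chow replicate 1, 0.803% without chow replicate 3, 1.37% without high-fat replicate 3, 2.09% without chow replicate 2 and 6.75% without high-fat replicate 2.

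H3K4me1 passed its own test at few of the called H3K27ac peaks. The 135 regions that rose overlapped 127 H3K4me1 peaks, of which 11 rose and 1 fell (8.66% rose, against 0.683% of all H3K4me1 peaks). The 80 regions that fell overlapped 71 H3K4me1 peaks, of which 6 fell and 1 rose (8.45% fell, against 0.879% of all). With 1 H3K4me1 peak taken per region, the H3K4me1 log2 fold change was above 0 at 99 of the 118 risers with such a peak, at 22 of the 68 fallers and at 4233 of 7208 regions overall. In all, 263 of 16834 H3K4me1 peaks were called (1.56%). That number was 47, 34 and 65 without chow replicates 1, 2 and 3, 79 without high-fat replicate 2 and 2036 without high-fat replicate 1. At 17 called regions this H3K4me1 peak was called too, in the opposite direction at 2 of them. At chr10:84271452-84274690, H3K27ac fell from 50.7 ± 5.5 to 34.1 ± 7.5 CPM (SD, n = 3), while the H3K4me1 peak rose by 0.51 on the log2 scale (edgeR adjusted p = 0.0336). At chr9:61218192-61223344, H3K27ac rose (log2 fold change 0.43, edgeR adjusted p = 0.0179) and H3K4me1 fell (log2 fold change -0.45, edgeR adjusted p = 0.00864). The H3K27ac call on chromosome 10 was lost without any one of 4 libraries, and with DESeq2.

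The authors' 2 peak lists, called on pooled libraries, divide the union. Of 1714 peaks listed for the high-fat diet only, 78 rose and 2 fell. Of 4511 listed for chow only, 16 rose and 67 fell, and of 5010 listed for both, 41 rose and 11 fell. The lists come from the same libraries as the counts, so this is a description.

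Calls depended on peak width. When the peaks were split into 5 bins of nearly equal size by width, 0.356% of the narrowest bin (648 to 2288 bp) were called, then 0.667%, 1.69% and 2.85%, and 4.01% of the widest (6435 bp and over). The widest bin held 68 of the 135 peaks that rose and 22 of the 80 that fell, and the narrowest held 3 and 5. The share of peaks with an absolute log2 fold change above 0.3 did not follow width, at 6.63%, 5.02%, 5.80%, 5.92% and 5.70% from narrowest to widest. The median SE did, falling from 0.125 to 0.0833. The part of precision in the order by width was not tested. Wide peaks held more reads (Spearman rho of width with mean CPM 0.864 over 11235 peaks, given as a description since neighbouring peaks share libraries). Bins by mean CPM gave the same order of calls, 0.979%, 1.29%, 1.78%, 2.36% and 3.16%. The share with an absolute log2 fold change above 0.3 was largest in the lowest of these bins. It was 11.1%, 5.43%, 4.05%, 4.09% and 4.36% from lowest to highest CPM. The median SE was 0.134 in the lowest bin and 0.0824 in the highest.

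Signal per length gave the reverse order of calls. The density of a peak is its mean CPM divided by its width in kb. In the bin with the lowest density (8.73 to 14.7 CPM per kb) 3.61% of peaks were called, followed by 3.25%, 1.87%, 0.579% and 0.267% in the densest bin (24.3 to 51.5 CPM per kb). Here the sizes of the differences followed too. An absolute log2 fold change above 0.3 was found in 13.0% of the least dense bin and 0.801% of the densest, while the median SE was 0.114 and 0.0951. Density went with mark class. H3K4me3 overlapped 12.2% of the least dense bin and 95.4% of the densest. With peaks split into 3 bins by each measure, the widest and least dense group held 80 called of 1369 (5.84%), the widest and densest group 9 of 808 (1.11%), and the narrowest and densest group 2 of 1891 (0.106%). The part of mark class in the order by density was not tested. Calls were more frequent in the widest than in the narrowest bin in 11 of 11 fits, and in the least dense than in the densest bin in 11 of 11. The shares themselves moved with single libraries. In the widest bin, 0.89% were called without chow replicate 3, 1.07% without chow replicate 1, 1.51% without high-fat replicate 3, 1.96% without chow replicate 2 and 8.06% without high-fat replicate 2.

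**Figure D2:**
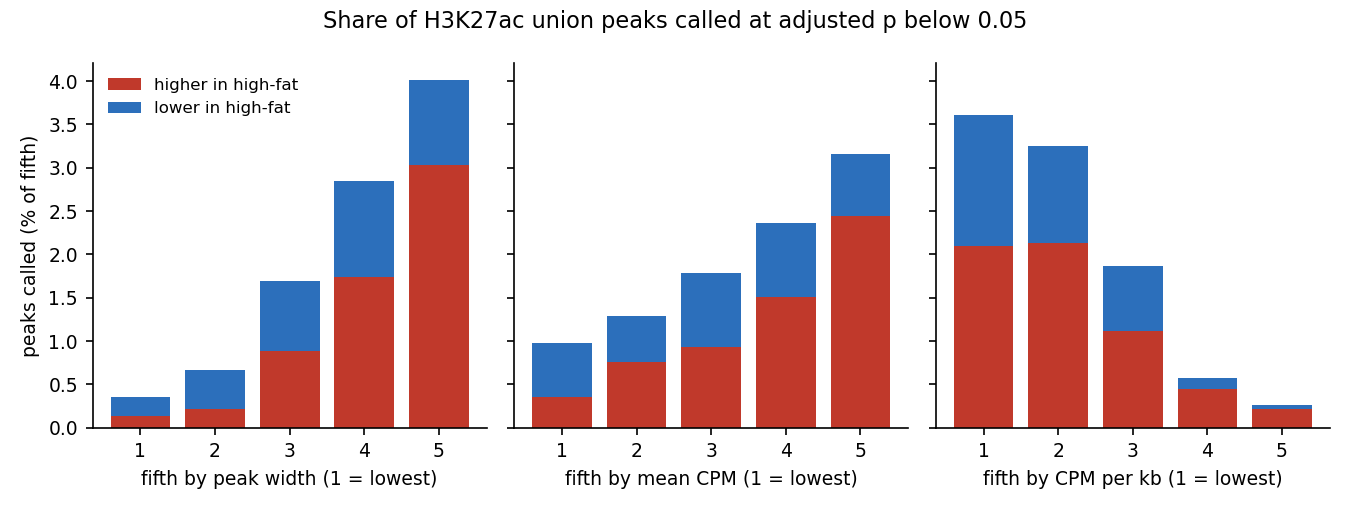
Share of union peaks called at an adjusted p below 0.05, in percent of each of 5 bins, ordered by width, by mean CPM and by CPM per kb. Red is higher and blue lower on the high-fat diet. The share rises to 4.01% in the widest bin and falls to 0.267% in the densest.

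In the narrowest bin 3 called peaks rose and 5 fell, and in the widest 68 rose and 22 fell. The median log2 fold change of all peaks moved from -0.046 in the narrowest bin to 0.030 in the widest. Offsets fitted to the trend with signal (cyclic loess) remove that trend, and signal goes with width. Smaller medians therefore follow from such a fit, and they were -0.0052 in the narrowest bin and 0.0056 in the widest. The balance in the narrowest bin then turned to 7 higher and 2 lower calls, and the widest bin held 46 higher and 29 lower. The widest bin held 13 higher and 11 lower calls without chow replicate 1 and 11 and 9 without chow replicate 3, and the narrowest held 1 and 0 in both.

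**Figure D3:**
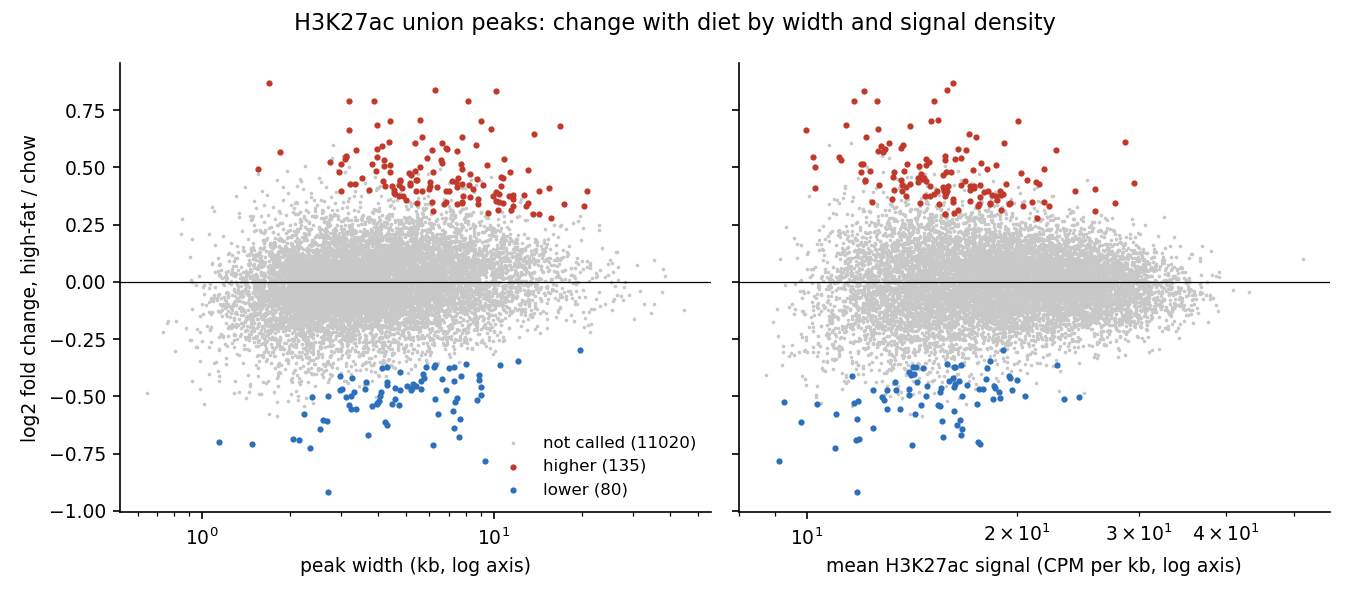
Log2 fold change (high-fat over chow) of all 11235 union peaks against width in kb (left) and mean signal in CPM per kb (right), both on log axes. Called peaks (135 higher in red, 80 lower in blue) sit towards wide regions on the left and towards low density on the right.

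Some changing peaks lay next to each other. A cluster was defined as a run of at least 2 neighbouring union peaks, called in the same direction with no other union peak between them and gaps of at most 50 kb. There were 25 such clusters, 17 of rising and 8 of falling peaks, on 13 chromosomes. They held 52 of the 215 called peaks (24.2%), and 163 called peaks stood alone. Their spans ran from 7271 to 63616 bp with a median of 22644 bp. Only 2 held 3 peaks, and the other 23 were pairs. In 9 clusters the gap was under 1 kb, so that the members were parts of nearly continuous acetylation. Among neighbouring peaks in general, the correlation of log2 fold changes (Pearson's r, across pairs of peaks in the same libraries) was 0.491 for gaps under 5 kb, 0.212 between 25 and 50 kb and 0.0495 above 250 kb. No pair of neighbouring called peaks had opposite directions. The number of clusters was 5, 10 and 3 without chow replicates 1, 2 and 3, and 51 and 6 without high-fat replicates 2 and 3.

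The falling cluster of 3 spanned chr17:14301608-14341859. Its first peak, of 3711 bp, held 64.4, 69.3 and 86.2 CPM in chow and 41.3, 44.7 and 51.7 CPM in the high-fat libraries. The second, 140 bp further on and 9286 bp wide, held 92.6, 106.7 and 114.6 CPM in chow and 75.3, 51.6 and 60.9 CPM in the high-fat libraries. The third, after a gap of 20932 bp, held 95.5, 103.8 and 119.1 CPM in chow and 62.5, 68.6 and 63.2 CPM in the high-fat libraries. All 3 lacked overlap between diets and fell by 0.67, 0.78 and 0.71 on the log2 scale, each with an SE of 0.098 to 0.12 and an edgeR adjusted p of 0.00419 or lower. The first call was lost without chow replicate 3 (adjusted p = 0.0639), and the other 2 held without any one library. A small peak of 1693 bp just before the cluster had a log2 fold change of -0.58 ± 0.16 that missed the threshold (edgeR adjusted p = 0.0618). H3K4me1 fell at the first 2 members (log2 fold changes -0.42 and -0.77, edgeR adjusted p = 0.0336 and 0.000214), and had a value of -0.12 at the third (adjusted p = 0.514), the only member that also overlapped H3K4me3.

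The rising cluster of 3 spanned chr6:90683548-90722977. The first peak measured 89.8, 90.2 and 87.8 CPM in chow and 119.0, 116.3 and 121.5 CPM in the high-fat libraries. The middle peak is the widest of all called peaks, 20793 bp, with 276.9, 309.4 and 272.9 CPM in chow and 403.8, 362.3 and 364.4 CPM in the high-fat libraries. The last measured 29.9, 27.1 and 18.5 CPM in chow and 32.5, 43.4 and 39.1 CPM in the high-fat libraries. The groups were separate at each, and the log2 fold changes were 0.42 ± 0.08, 0.40 ± 0.08 and 0.66 ± 0.16. Calls of this cluster were less stable, since each was lost without at least 2 of the 6 libraries. H3K4me1 rose at the last member (log2 fold change 0.60, edgeR adjusted p = 0.0151) and had a log2 fold change of -0.0033 at the first. The H3K4me1 peaks of the middle member had log2 fold changes of 0.17, 0.52 and 0.30. Only the second of these was called (edgeR adjusted p = 0.362, 0.0128 and 0.0866). The 3 union peaks before the cluster, within 60 kb of its start, had log2 fold changes of 0.019 to 0.13 and were not called.

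**Figure D4:**
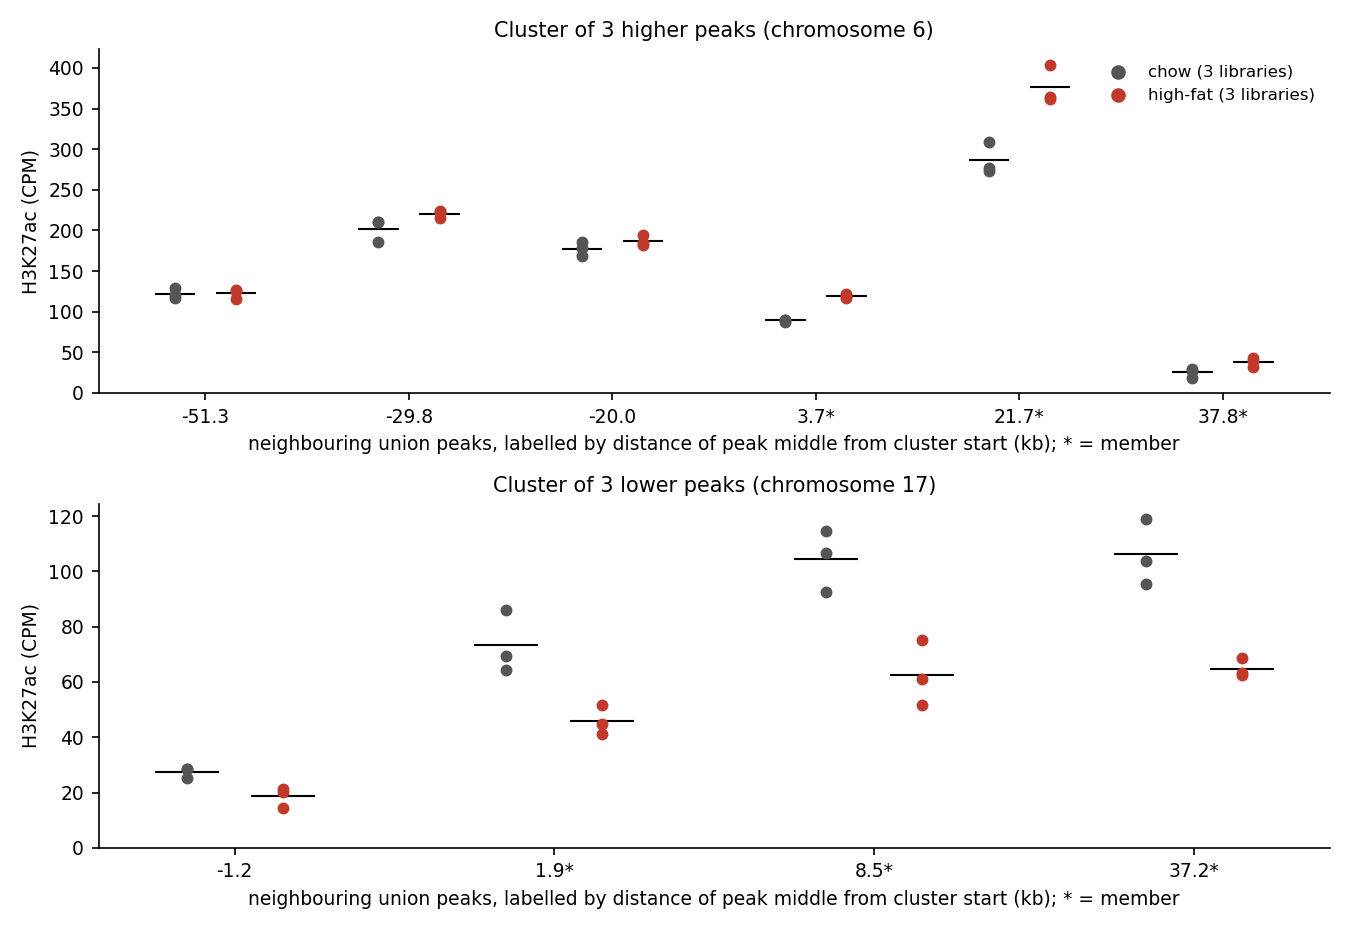
H3K27ac (CPM) at the members (asterisks) and near neighbours of the 2 clusters of 3 peaks, in the order of the chromosome, with the distance of each peak's middle from the cluster start in kb. Points are libraries and bars are means. In the lower panel every high-fat library lies below every chow library at each member, and in the upper panel every high-fat library lies above.

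Of the paired clusters, the one at chr9:60793353-60834531 rose most. Its first peak went from 71.6 ± 6.4 to 107.5 ± 2.3 CPM and its second from 71.1 ± 11.8 to 122.9 ± 8.3 CPM (SD, n = 3), with log2 fold changes of 0.58 and 0.79. Both calls held without any one library. At chr19:44488548-44536462 the log2 fold changes were 0.67 and 0.53, and at chr17:31169981-31213062 they were 0.60 and 0.48. In the pair at chr15:74760478-74767748, split by 102 bp, high-fat replicate 1 was far above the others, at 107.7 against 71.8 and 66.8 CPM in the first peak. The same library led in the pair at chr11:75372798-75388118, with 226.7 against 158.8 and 194.5 CPM, and the second peak of that pair overlapped between diets. Among falling pairs, chr9:106028655-106043294 had log2 fold changes of -0.60 and -0.61 and overlapped neither methylation mark. At chr12:21137940-21156344 they were -0.42 and -0.64, at chr19:4017613-4027330 they were -0.46 and -0.63, at chr10:84271452-84324236 they were -0.55 and -0.47, and at chr10:59238593-59250532 they were -0.47 and -0.52. In 8 of these 9 other pairs, at least 1 call was lost without chow replicate 3, and in the chr12 pair the first call was lost without chow replicate 1, chow replicate 2 or high-fat replicate 3. The second call of the chr17 pair was lost without any one of 5 libraries and the second of the chr11 pair without any one of 4. Both calls of the last pair were lost without chow replicate 1, chow replicate 3 or high-fat replicate 3, and with DESeq2.

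Counts over gene promoters, from the same libraries, give names to part of the change. Of 20891 promoters tested, 49 were called (0.235%), 39 higher and 10 lower. The diets were separate at all 49, and at 4074 of the 20891 tested (19.5%). The width of a promoter in this table is not given in the sources used here. These calls were fragile. Without chow replicate 2, edgeR called 0 promoters (2431 at an unadjusted p under 0.05), without chow replicate 1 it called 1, without chow replicate 3 it called 7 and without high-fat replicate 3 it called 8. It called 95 without high-fat replicate 1 and 736 without high-fat replicate 2. On all 6 libraries, DESeq2 called 39, edgeR without the filter 71 and edgeR with cyclic loess offsets 94.

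Of the 39 promoters that rose, 9 are named first, picked after their values were seen. They were H2-Aa of the class II antigen-presenting family, H2-Ea-ps (a class II pseudogene by its symbol) and Irg1 (itaconate synthesis in activated macrophages). The rest were Hcst (a signalling adaptor of cytotoxic cells), Cd52, Il10ra (the interleukin 10 receptor), Sfpi1 (the myeloid transcription factor PU.1), Cd68 and Oas3. At H2-Aa the chow libraries held 20.8, 20.6 and 17.2 CPM and the high-fat libraries 65.7, 24.2 and 41.7 CPM, a log2 fold change of 1.11 ± 0.23 (edgeR adjusted p = 0.0401). Its neighbours H2-Eb1 and H2-Eb2 had log2 fold changes of 0.86 and 0.14 and were not called (edgeR adjusted p = 0.102 and 0.853). Oas3 held 19.9, 24.9 and 19.3 CPM in chow and 74.7, 31.9 and 46.5 CPM in the high-fat libraries, and rose by 1.22 ± 0.21 on the log2 scale (edgeR adjusted p = 0.0122). At both, high-fat replicate 1 was highest and replicate 2 was close to chow. Cd68 was more even, with 40.0, 48.2 and 43.5 CPM in chow and 57.2, 63.8 and 62.7 CPM in the high-fat libraries. High-fat replicate 1 was the highest of the 3 at 31 of the 39 promoters that rose.

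Marker promoters of other cell types were summed beside these values. Of 13 tested macrophage and Kupffer cell promoters, 1 was called (Cd68, against 0.235% of all promoters) and 12 had a log2 fold change above 0, with a median of 0.51 against -0.0030 over all promoters. Their summed signal was 201.9, 243.3 and 200 CPM in chow and 395.8, 243.6 and 290.7 CPM in high-fat replicates 1 to 3. All 8 lymphocyte promoters were above 0 with a median of 0.58 and none called, and their sums were 122.9, 141.9 and 127.3 CPM in chow and 262.8, 151.4 and 175.3 CPM in the high-fat libraries. Endothelial promoters had 1 of 7 above 0, a median of -0.22 and sums of 204.9 to 207.3 CPM in chow and 182.6 to 191.2 CPM in the high-fat libraries. The sums of stellate cell and of cholangiocyte promoters overlapped between diets. The 13 hepatocyte identity promoters summed to 972.7 CPM in high-fat replicate 1, against 1294 to 1531 CPM in the other 5 libraries. In mRNA the macrophage sums overlapped between diets, at 288.2 to 532.1 CPM in chow and 345.7 to 640.8 CPM on the high-fat diet. No macrophage or lymphocyte marker was at 0 in every library. In mRNA, exocrine pancreas markers fell at 11 of 13 genes, against 17.6% of all 12909 mRNAs. Their mRNA sums were 2092, 909.6 and 346.2 CPM in chow and 23.1, 204 and 10.3 CPM in the high-fat libraries. Their summed promoter acetylation overlapped between diets. The part of these cells in the promoter calls was not tested.

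Other risers included Pparg, a lipid-storage transcription factor, at 50.7, 53.3 and 45.6 CPM in chow and 81.6, 81.0 and 66.4 CPM in the high-fat libraries (log2 fold change 0.62 ± 0.10, edgeR adjusted p = 0.0122). Ccnd1, the cell cycle regulator cyclin D1, rose by 0.59 ± 0.09 on the log2 scale (edgeR adjusted p = 0.00541). Lgals1, the lectin galectin 1, rose by 0.63 ± 0.09 (edgeR adjusted p = 0.0053). Lgals1 held 68.4 to 78.0 CPM in chow and 111.3 to 123.2 CPM in the high-fat libraries. The largest fold change, a log2 value of 2.35 ± 0.49 at Cyp2a4, rests on 4, 3 and 4 reads in chow and 18, 15 and 13 reads in the high-fat libraries. Cyp2a4 has a near-identical neighbour, Cyp2a5, so its counts are uncertain. Hrh2, the histamine receptor H2, rose by 1.47 ± 0.26 on the log2 scale at 6.78 to 9.03 CPM in chow and 15.9 to 34.3 CPM in the high-fat libraries. Of 7 female-biased promoters tested, 1 was called, and of 15 lipid droplet promoters, 1 (Pparg), against 0.235% of all promoters.

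The promoters that fell were led by Gulp1, an adaptor for the engulfment of dying cells, with 36.2, 42.6 and 32.4 CPM in chow and 14.9, 17.8 and 20.4 CPM in the high-fat libraries. Its log2 fold change was -1.02 ± 0.17 (edgeR adjusted p = 0.0122). Dact2 held 64.5, 72.7 and 88.3 CPM in chow and 32.9, 48.1 and 40.6 CPM in the high-fat libraries (log2 fold change -0.86 ± 0.13). High-fat replicate 1 was the lowest of the 3 high-fat libraries at 9 of the 10 promoters that fell. The 18 promoters of PPARalpha targets and fatty acid oxidation were all below 0 with a median of -0.22, and none was called. Their summed signal was 1549, 1508 and 1538 CPM in chow and 1156, 1490 and 1367 CPM in high-fat replicates 1 to 3. Over all promoters tested, 10320 of 20891 were above 0. Other lists had low values too. Of 13 hepatocyte identity promoters 0 were above 0 (median -0.19), and of 15 urea cycle and amino acid breakdown promoters 4 were (median -0.16). The interferon response promoters had 20 of 21 above 0, a median of 0.28 and none called. Susd4, Cadm4, Ppp1r9a, Phldb2, Mmp11, Gm16551 and Gpd1 (a glycerol phosphate dehydrogenase) also fell.

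For the called promoters, mRNA of the same diets was set beside the acetylation. Of the 39 promoters that rose, 22 had a tested mRNA, of which 11 rose and 0 fell (18.0% of all 12909 mRNAs rose and 17.6% fell). The mRNA log2 fold change was above 0 at 21 of the 22, with a median of 0.9997. Lgals1 mRNA went from 5.77 to 44.7 CPM, Ccnd1 from 11.5 to 67.7, Zbp1 (a sensor of nucleic acids) from 2.21 to 10.7 and Cyp2a4 from 27.2 to 111.8. H2-Aa mRNA went from 18.1 ± 3.8 to 25.1 ± 7.2 CPM (SD, n = 3) and did not pass (edgeR adjusted p = 0.128). The mRNA of its neighbour H2-Eb1, whose promoter was not called, rose by 0.79 on the log2 scale (edgeR adjusted p = 0.0324). Of the 10 promoters that fell, 9 had a tested mRNA, of which 2 fell (Dact2 and Ppp1r9a) and 7 did not pass. The mRNA log2 fold change was above 0 at 2 of these 9, with a median of -0.39. Dact2 mRNA went from 15.8 ± 0.4 to 3.15 ± 0.37 CPM. With libraries scaled by total counts instead of TMM factors, the calls over all mRNAs split into 2805 higher and 1646 lower, against 2319 and 2271.

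**Figure D5:**
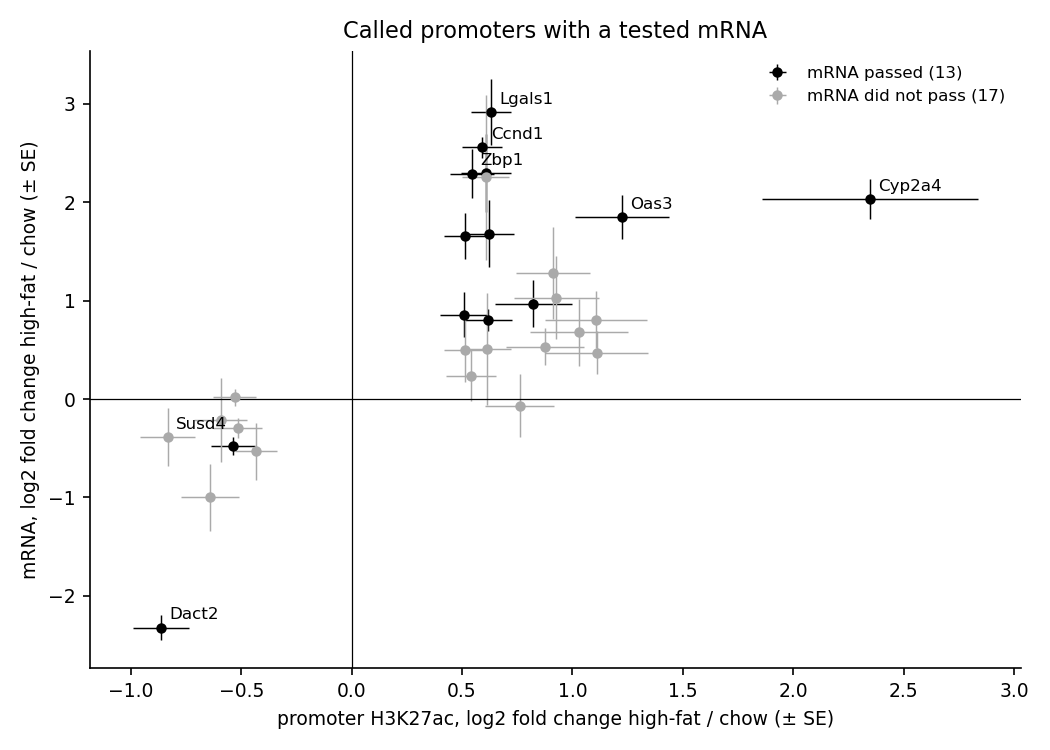
Log2 fold change of promoter H3K27ac (x axis) and of mRNA (y axis), high-fat over chow, with SE bars, for 30 of the called promoters with a tested mRNA. Black points passed in mRNA (13) and grey points did not (17). Dact2 is lowest in both, at -0.86 in acetylation and -2.32 in mRNA.

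The authors' deposited table of H3K27ac peaks lists 199 peaks past an adjusted p of 0.05, 123 higher and 76 lower. Of these, 177 were among the 215 called here, all in the same direction. The authors' deposited table of promoters lists 48, of which 34 were among the 49.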

How the data were processed

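H3K27ac, H3K4me1 and mRNA libraries of 3 chow and 3 high-fat livers each were used, grouped by their titles. The deposited count tables hold raw counts per union peak, per gene promoter and per gene, which the authors made on mm9. Per the submitters' processing notes the tools were Bowtie 0.12.7, MACS 1.4.0rc2, TopHat 1.4.0, HTSeq, bedtools and DESeq2 1.0.18. Per the file headers, MACS was run on the 3 libraries of a diet together, with that diet's IgG as control and a p-value cutoff of 1e-06, and only peaks with an FDR up to 10 percent are in the lists. The deposited lists also give a score and a fold enrichment (a ratio) per peak, and the authors' tables give log2 fold changes and adjusted p-values.

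Each table was fitted alone with edgeR 4.0.16 (R 4.3.3): filterByExpr, TMM factors, quasi-likelihood F test, two-sided, diet as the only term, Benjamini-Hochberg adjustment over all features of the table. CPM use TMM-scaled totals. The fits were tested on simulated data. Peaks were joined by overlap of at least 1 bp, and width is end minus start plus 1. Depth ranged from 2037101 to 5772962 counts in peaks, 1967613 to 4964403 at promoters, 5487592 to 7380206 for H3K4me1 and 19016275 to 45741794 for mRNA. Libraries of 1 diet differed by more than sampling noise. Reads carry no molecular identifiers.

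The members, the 20 gene lists and the tests were chosen with earlier results of these data known. Named items were the 10 largest increases and decreases among called peaks without overlap, the 6 clusters with most peaks in each direction, the 12 largest promoter changes in each direction and up to 4 called promoters of a list. Some further called promoters, H2-Eb1, H2-Eb2 and the 2 peaks with opposite H3K4me1 calls were picked after their values were seen. So were the promoters and motifs shown as sequence. Alternatives were total counts, DESeq2 1.42.0, no filter, cyclic loess offsets (limma 3.58.1), the replicate number as a block, other gaps and overlaps, and leaving out each library. For the mark classes all of these, and for the width and signal bins the block and leaving out libraries, were chosen after seeing the data. 1 called promoter was left out of the plot of promoter acetylation and mRNA.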

Additional observations from a re-analysis of the deposited data

How the results depend on the processing

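Limits first. The libraries of each diet differ in depth, and 3 libraries per diet leave the number of calls dependent on single libraries. Leaving out 1 library gave 44 to 442 called H3K27ac peaks against 215, 0 to 736 promoters against 49, 34 to 2036 H3K4me1 peaks against 263, 2899 to 5163 mRNAs against 4590, and 3 to 51 clusters against 25. The percent called ranged likewise from 0.89 to 8.06 in the widest of 5 width bins, 0.49 to 6.90 in the CPM bin with most signal, 0.777 to 6.75 at H3K4me1 alone and 0 to 0.973 at H3K4me3 alone (these ranges, and those by mark class, were chosen after seeing the data). The cause of these differences was not tested. Total counts, DESeq2, no filter and cyclic loess gave 194, 150, 215 and 200 peaks. At an adjusted p of 0.01, 54 peaks were called. Cyclic loess gave 94 promoters. DESeq2 gave 16 clusters and called 2.785% at H3K4me1 alone. When an overlap had to cover at least 50% of the peak, 10.7% of called peaks overlapped H3K4me3 (21.9% before, 44.1% of all peaks) and 77.2% overlapped H3K4me1 (86.5% before, 57.0% of all peaks).

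The labels do not say whether equal replicate numbers pair the libraries. Deviations from the diet mean of libraries with equal numbers correlated at 0.0246, -0.13 and 0.0911 over the peaks. Over the promoters they correlated at 0.0919, -0.0059 and 0.0437. With 3 libraries per diet these values cannot decide whether libraries were paired. With the replicate block, 196 peaks (177 shared), 470 promoters, 359 H3K4me1 peaks, 4462 mRNAs and 21 clusters were called. No called peak or promoter named changed sign under any alternative run. Signs changed only for mRNAs that did not pass. Without each library in turn, log2 fold changes of mRNA Gm16551 ran from -0.60 to 0.22 (0.22 without chow replicate 2, 0.0017 without high-fat replicate 3), and of mRNA Phldb2 from -0.03008 to 0.0757 (-0.01532, -0.01979 and -0.03008 without chow replicate 2, chow replicate 3 and high-fat replicate 2). Those of mRNA Uap1l1 ran from -0.04164 to 0.72 and of mRNA Il10ra from -0.07457 to 0.43, both lowest without high-fat replicate 3. Those of mRNA Setbp1 ran from -0.29 to 0.16 (0.0303 and 0.16 without chow replicate 3 and high-fat replicate 1) with 0.01727 under total counts. Depth limits low promoters most, such as Cyp2a4 with 3 or 4 reads per chow library.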
